A study of Homo sapiens with 6 samples.

Results

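The zinc finger gene cluster on 19q13.4 was examined in K562 cells that were sensitive or resistant to the folate antagonist methotrexate (MTX). It comprised 60 named genes near the end of the long arm of chromosome 19, from ZNF579 to MZF1 in map order. The cluster was selected on the measured falls of ZNF544 and ZNF667 in these resistant arrays, so the values of these genes, and of ZNF667-AS1 beside ZNF667, are a description without a test. All probe sets whose platform annotation names a member were taken, 111 of the 54675 on the array, and 106 of them name 1 gene only. Of the 60 members, 58 had such a probe set, among 19775 genes named on the array, and ZNF772 and ZNF773 had none. Apart from TRIM28 and the antisense transcript ZNF667-AS1, the members are zinc finger genes by symbol or by known product.

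K562 is a long-established human leukaemia line, derived from blast crisis of the chronic myeloid form and labelled as erythroblastic leukemia. Parental cells, sensitive to MTX, were compared with K562 cells resistant to it, with 3 arrays (HG U133 PLUS 2.0, biotin-labelled total RNA) in each group. Resistant cells were kept in a medium from which glycine, hypoxanthine and thymidine were left out, with dialysed serum, and parental cells in Ham's F12 with whole serum. The effect of resistance and that of the medium cannot be told apart. Whether replicates are separate cultures is not in the labels. If they are not, a p-value measures a spread that may be technical.

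Most genes of the cluster encode proteins with tandem C2H2 zinc fingers that bind DNA, and many of these carry a KRAB domain. The KRAB domain recruits TRIM28 (KAP1), which brings the histone methyltransferase SETDB1, HP1 proteins and histone deacetylases to the bound site and silences it. Families of this kind arose by tandem duplication, many members repress transposable elements, and chromosome 19 holds several such clusters, of which the one on 19q13.4 lies nearest the telomere of the long arm. TRIM28 itself lies in the cluster, near MZF1.

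The promoters of the 3 genes with the largest falls are shown with that of ZNF274, a member whose product is known to recruit SETDB1 to the 3′ ends of zinc finger genes and whose level was not called different. Each sequence holds the 250 bases before the gene's start on its own strand, from RefSeq on GRCh38.p14, with CG dinucleotides in capitals.
ZNF667 (chr19:56477346-56477595, minus strand, 35 CG): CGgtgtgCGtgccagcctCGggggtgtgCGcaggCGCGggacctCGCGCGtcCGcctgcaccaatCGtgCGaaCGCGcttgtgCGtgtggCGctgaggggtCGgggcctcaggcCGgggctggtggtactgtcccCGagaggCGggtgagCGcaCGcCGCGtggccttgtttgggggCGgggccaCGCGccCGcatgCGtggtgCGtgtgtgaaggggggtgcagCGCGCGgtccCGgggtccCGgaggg
ZNF667-AS1 (chr19:56477624-56477873, plus strand, 21 CG): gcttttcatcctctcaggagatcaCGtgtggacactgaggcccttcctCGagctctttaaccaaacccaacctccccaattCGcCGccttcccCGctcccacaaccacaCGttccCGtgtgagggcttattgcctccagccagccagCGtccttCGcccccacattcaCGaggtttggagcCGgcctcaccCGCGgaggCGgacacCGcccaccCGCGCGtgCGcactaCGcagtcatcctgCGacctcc
ZNF544 (chr19:58228664-58228913, plus strand, 26 CG): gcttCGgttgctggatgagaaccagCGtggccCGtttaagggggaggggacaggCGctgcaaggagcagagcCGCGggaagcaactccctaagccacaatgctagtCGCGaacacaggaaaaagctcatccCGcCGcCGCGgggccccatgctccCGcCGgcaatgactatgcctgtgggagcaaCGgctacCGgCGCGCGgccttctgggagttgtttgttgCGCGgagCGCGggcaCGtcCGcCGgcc
ZNF274 (chr19:58182811-58183060, plus strand, 14 CG): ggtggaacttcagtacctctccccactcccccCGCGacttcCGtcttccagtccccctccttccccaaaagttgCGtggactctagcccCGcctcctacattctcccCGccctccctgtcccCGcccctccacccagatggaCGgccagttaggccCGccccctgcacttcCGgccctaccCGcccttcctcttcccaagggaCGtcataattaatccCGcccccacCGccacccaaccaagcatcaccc
ZNF667 and ZNF667-AS1 are transcribed away from each other, from starts 529 bases apart, and the windows shown for them are separated by 28 bases.

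A promoter window, from 250 bases before the start to 50 after it, was listed for 52 of the 60 members. These windows held a median of 23.0 CG dinucleotides, with a range of 11 to 42, against 14 over the windows of 27305 genes. A high count was not particular to the cluster, since genes with zinc finger symbols on other chromosomes had a median of 24.0. Those elsewhere on chromosome 19 had a median between that of all genes and that of the members. At least 20 CG were present in 39 members, or 75%, and in 41.2% of all genes. The 39 members that passed the level filter had the same median of 23.0, and the 11 with a window and probe sets that did not pass had a median of 21. The other 2 windows belong to ZNF772 and ZNF773, which have no probe set.

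6 short motifs were searched on both strands of the windows. CCGGAAG, the core that ETS factors recognise, was present in 31 of the 52 members (59.6%) and in 10.7% of all genes. It was also frequent in genes with zinc finger symbols outside the cluster, in 39.0% of the 172 elsewhere on chromosome 19 and in 34.4% of the 288 on other chromosomes. Among all genes with at least 20 CG it was present in 19.2%. The windows of ZNF544, ZNF256, ZNF865 and ZNF274 held it and those of ZNF667 and ZNF667-AS1 did not. The palindromic core of the NRF1 site was present in 10 members (19.2%), ZNF667, ZNF667-AS1, ZNF256 and ZNF865 among them, and in 6.28% of all genes. That core was present in 13.7% of all genes with at least 20 CG. GGGCGG, the GC box, was present in 71.2% of members and 44.6% of all genes, but in 81.9% of genes with at least 20 CG, and in 68.0% and 63.2% of zinc finger genes elsewhere on chromosome 19 and on other chromosomes. CCAAT was present in 59.6% of members, 35.7% of all genes, 31.8% of those with at least 20 CG, and 51.2% and 42.7% of the same groups of zinc finger genes. CACGTG (9.62% of members, 7.43% of all genes, 10.6% of those with at least 20 CG) and AAGATGGCG (1.92%, 1.85% and 3.53%) were rarer. A match of letters is a description and not a binding site.

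The arrays read RNA of K562 cells. All 7 of the erythroid and K562 markers with a probe set, among them GATA1 and HBZ, were above 1 array median on every array, and their summed level was 1001.7 to 1269.9 array medians. No marker of B lymphocytes, T lymphocytes or monocytes and granulocytes reached 1 array median on every array, and of 6 fibroblast markers COL1A1 did, at 1.9 to 5.2. Parental replicate 1 stood apart. Its Spearman correlation with the other parental arrays was 0.899 and 0.889 over probe sets, against 0.969 between those 2 and 0.941 to 0.968 among the resistant arrays. The summed level of 6 epithelial markers was 119.3 array medians on parental replicate 1, 47.2 and 36.7 on the other parental arrays and 19.4 to 38.9 on the resistant arrays. KRT19 made up most of it, at 83.7 against 39.9 and 31.8 on the other parental arrays, and was above 1 on every array. CDH1 was at 21.8 against 2.01 and 0.717, and EPCAM and ESRP1 were also highest on parental replicate 1. KRT7 (2.36 against 3.20 and 3.18) and CLDN4 (0.0979 against 0.168 and 0.118) were lower there. The part of these markers in the results was not tested, and values without this array are given below where it matters.

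Levels are given as multiples of the median signal of the array, in the order of replicates 1 to 3. Levels below 1 are in the background range. Large folds against such levels are uncertain and are therefore also given with all values under 1 set to 1. Each fold is the ratio of the groups' geometric means, since it was taken from log2 values, and can differ from the ratio of the arithmetic means printed beside it. In these bulk samples fewer cells with a transcript and less of it per cell cannot be told apart. Of the cluster's 106 probe sets, 68 averaged at least 1 over the 6 arrays and entered the test, and they covered 44 members. Each of these members is represented by its brightest tested probe set unless another is named. 6 of them (ZNF865, ZNF667, ZNF667-AS1, ZNF460, ZNF256 and ZNF544) averaged under 1 in one group and passed only through the level of the other, so that some difference was built into their selection; this held for 8.2% of all tested genes.

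Most of the measured genes of the cluster were lower in MTX-resistant cells, usually by a small amount, and ZNF544, ZNF667 and ZNF667-AS1 fell into or close to the background range. The log2 difference, resistant minus parental, was negative in 38 of the 44 tested members (86.4%), against 48.6% of all 11810 tested genes, and its median was -0.41 with quartiles of -0.70 and -0.18, against a median of 0.02 over all tested genes. Without ZNF544, ZNF667 and ZNF667-AS1, 35 of 41 were negative (85.4%) and the median was -0.40. A positive difference was seen in 6 members (13.6%), against 51.4% of all tested genes. A gene was called when the limma adjusted p was below 0.05 and the groups differed at least 2-fold. ZNF544, ZNF667, ZNF667-AS1 and ZNF211 were called lower, 4 of 44 members or 9.09%, where 1.47% of all genes were called lower, and 3 of these 4 are the genes described without a test. ZNF865 was called higher, 1 of 44 members or 2.27%, against 1.3% of all genes. At the level of probe sets, 4 of 68 were called lower (1.14% of all tested) and 1 higher (1.2%). Since the cluster was chosen with the lower genes known, these counts and medians describe it and test nothing.

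**Figure D1:**
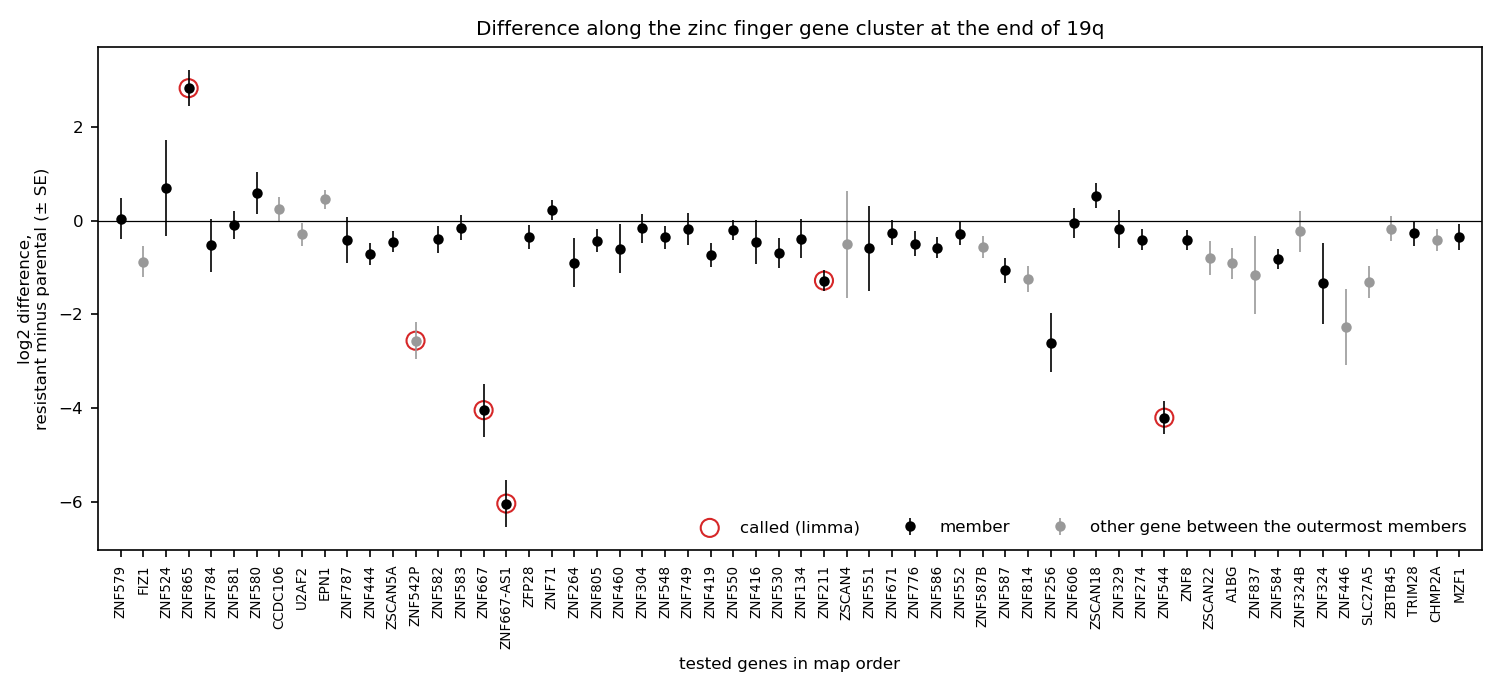
Log2 difference, resistant minus parental, with its standard error (vertical axis) for the 60 tested genes between ZNF579 and MZF1 in map order (horizontal axis), by representative probe set. Colours separate members from other genes in the interval, and open circles mark genes called by limma; ZNF667, ZNF667-AS1 and ZNF544 lie at -4.04, -6.03 and -4.20, ZNF542P at -2.56 and ZNF865 at 2.82, and most other points lie between 0 and -1.

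ZNF544, a KRAB zinc finger gene, was read at 11.6, 16.6 and 18.0 array medians in parental cells and at 0.593, 0.752 and 1.25 in resistant cells. The groups were far apart, and the resistant arrays lay around 1 array median. The means were 15.4 ± 3.38 and 0.867 ± 0.345 (SD, n = 3), and the mean log2 level fell by 4.20 (SE 0.346) on the log2 scale, a fold of 18.4. With values under 1 set to 1 the ratio was 14. A dimmer probe set of the gene gave 1.94, 1.21 and 2.96 in parental cells and 0.244, 0.056 and 1.10 in resistant cells, also without overlap. It was not called (limma adjusted p = 0.196) and passed the level filter only through the parental arrays. With values under 1 set to 1 its fold was 1.85 (limma adjusted p = 0.178). A further probe set was below 1 on every array and was not tested, at means of 0.128 in parental and 0.364 in resistant cells. The brightest probe set is of a class that can read several transcripts, and the other tested one is not.

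ZNF667 encodes a KRAB zinc finger protein, and ZNF667-AS1 is a long noncoding RNA that starts beside it on the other strand. ZNF667 was read at 3.78, 3.26 and 2.98 in parental cells and at 0.0894, 0.448 and 0.206 in resistant cells. All resistant values were in the background range. The means were 3.34 ± 0.409 and 0.248 ± 0.183 (SD, n = 3). The fold was 16.4, and 3.32 with values under 1 set to 1. ZNF667-AS1 was read at 3.08, 9.05 and 11.7 in parental cells and at 0.122, 0.088 and 0.108 in resistant cells. The parental arrays spread widely, with replicate 1 the lowest, and the resistant arrays lay close together near 0.1. The means were 7.94 ± 4.41 and 0.106 ± 0.0171 (SD, n = 3). The mean log2 level fell by 6.03 on the log2 scale (SE 0.507), a fold of 65.5, or 6.88 with values under 1 set to 1. The only tested probe set of ZNF667-AS1 is also of the class that can read several transcripts. ZNF667 and ZNF667-AS1, whose promoters are shown above, were thus both at background in every resistant array.

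ZNF211, another KRAB zinc finger gene, was the only member apart from those 3 that was called lower. It was read at 8.0, 8.60 and 8.68 in parental cells and at 4.24, 3.15 and 3.15 in resistant cells. All 6 arrays were well above the median, so signal remained in the resistant cells. The means were 8.43 ± 0.371 and 3.51 ± 0.627 (SD, n = 3), and the fold was 2.42 (log2 difference -1.28, SE 0.219, limma adjusted p = 0.0411). The call was near the threshold and was kept without parental replicate 1 only; without any one of the other 5 arrays it was lost, with limma adjusted p up to 0.161 and log2 differences of -1.42 to -1.20 over all 6 fits.

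ZNF865 encodes a protein with many zinc fingers and was the only member called higher. Its tested probe set was read at 0.175, 0.305 and 0.402 in parental cells and at 1.54, 1.75 and 2.79 in resistant cells. The groups did not overlap, but all parental values were in the background range and the resistant ones just above it. The means were 0.294 ± 0.114 and 2.03 ± 0.673 (SD, n = 3). The fold was 7.05 (limma adjusted p = 0.021), from a probe set that passed the level filter only through the resistant arrays. With values under 1 set to 1 the fold was 1.96 and the limma adjusted p 0.0894. A further probe set of the gene did not reach the level filter, and its groups overlapped, at 1.10, 0.168 and 0.740 in parental cells and 0.740, 0.488 and 0.333 in resistant cells. The call was also lost without parental replicate 2, resistant replicate 1 or resistant replicate 2, with limma adjusted p up to 0.0854, and without resistant replicate 3 the probe set was below the level filter.

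**Figure D2:**
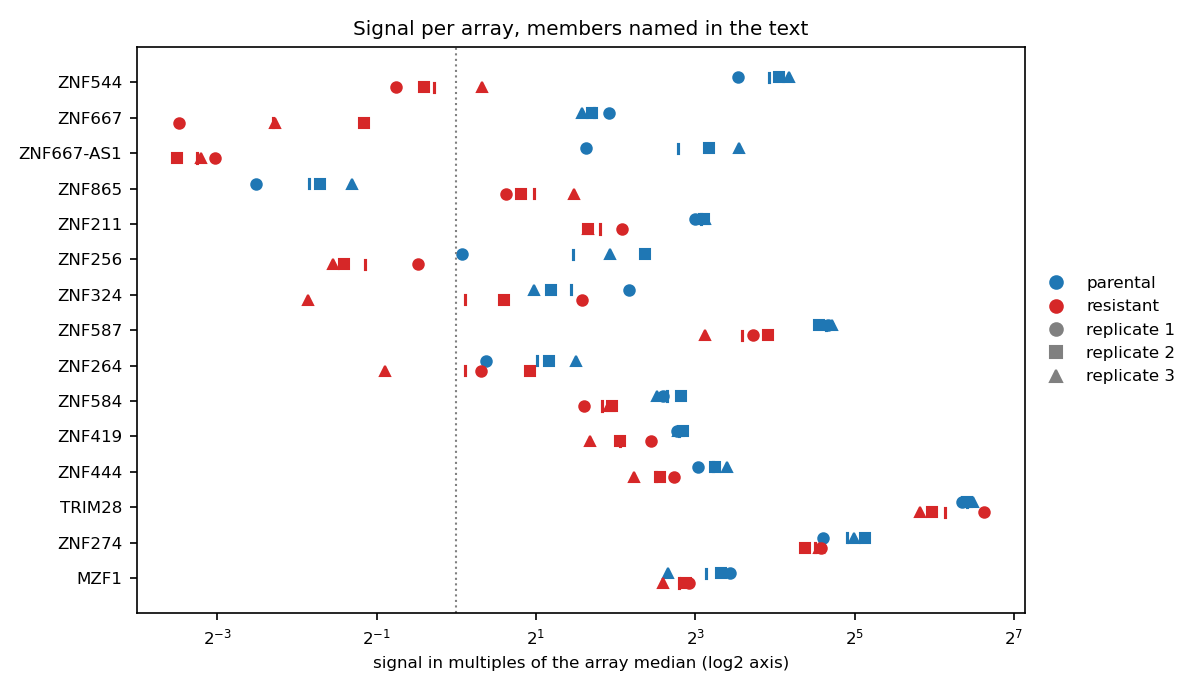
Signal in multiples of the array median (horizontal axis, log2 scale) of the named members on each of the 6 arrays. Colours give the group, marker shapes the replicate, short bars the mean of the log2 values, and the dotted line 1 array median; the parental and resistant points of ZNF544, ZNF667, ZNF667-AS1, ZNF211 and ZNF865 do not overlap.

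Several members came close to the threshold without passing it. ZNF256, a KRAB zinc finger gene, was read at 1.05, 5.18 and 3.82 in parental cells and at 0.715, 0.376 and 0.343 in resistant cells. Every resistant array was below every parental one, with parental replicate 1 near the resistant values (log2 difference -2.60, SE 0.636, limma adjusted p = 0.1). With values under 1 set to 1 the difference was -1.46, or 2.75-fold instead of 6.08-fold (limma adjusted p = 0.167). Without parental replicate 1 the limma adjusted p was 0.0136 at -3.30, for a probe set that passed the level filter only through the parental arrays. ZNF264, another KRAB zinc finger gene, was read by its dimmer tested probe set at 2.66, 2.19 and 2.34 in parental cells and at 0.528, 0.856 and 0.225 in resistant cells, a log2 difference of -2.35 (limma adjusted p = 0.0668). This was the member probe set just outside the threshold, as that of ZNF211 was just inside. With values under 1 set to 1 it passed, at 2.39-fold and a limma adjusted p of 0.0146. This probe set, too, passed the level filter only through the parental arrays. The brighter probe set of ZNF264 gave -0.90 with overlapping groups (limma adjusted p = 0.408).

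ZNF587 was read at 25.4, 23.4 and 26.3 in parental cells and at 13.2, 15.0 and 8.68 in resistant cells. The groups lay clearly apart, at 2.09-fold, yet the limma adjusted p was 0.105. A second probe set of the gene gave -1.20 (limma adjusted p = 0.128), and both are of a class that can also read near-identical transcripts, so the signal may include copies such as ZNF587B and ZNF814. ZNF584 (6.03, 7.05 and 5.72 against 3.03, 3.86 and 3.79), ZNF419 (6.81, 7.17 and 6.91 against 5.46, 4.14 and 3.2) and ZNF444, a SCAN domain gene (8.18, 9.53 and 10.5 against 6.64, 5.90 and 4.71), had log2 differences of -0.82, -0.74 and -0.72. None of the 3 was called (limma adjusted p = 0.119, 0.193 and 0.176), although their groups did not overlap by these probe sets. A dimmer probe set of ZNF419 gave -0.88, also without overlap (limma adjusted p = 0.2). A dimmer one of ZNF444 gave -1.71 with overlapping groups (limma adjusted p = 0.199). ZNF324 was read at 4.48, 2.27 and 1.97 against 2.99, 1.51 and 0.275, with overlapping groups (log2 difference -1.34, SE 0.868, limma adjusted p = 0.455). Its difference rested on 2 arrays, and was 0.01 without parental replicate 1 and resistant replicate 3.

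In 14 of the 44 tested members (31.8%) every resistant array lay below every parental one, against 14.2% of all tested genes. They were ZNF444, ZSCAN5A, ZNF667, ZNF667-AS1, ZNF548, ZNF419, ZNF211, ZNF586, ZNF587, ZNF256, ZNF274, ZNF544, ZNF8 and ZNF584, and they were 11 of 41 (26.8%) without the 3 genes described first. The reverse was seen for ZNF865 alone, 2.27% of members against 16.1% of all tested genes. The other members with a positive log2 difference were ZNF524 (0.70), ZNF580 (0.59), ZSCAN18 (0.53), ZNF71 (0.22) and ZNF579 (0.04), and none of them was called. ZSCAN18 was read at 5.27, 4.73 and 3.95 in parental cells and at 8.40, 7.00 and 5.05 in resistant cells, where resistant replicate 3 fell within the parental range (limma adjusted p = 0.345). At an unadjusted limma p under 0.05, 8 of the 41 members other than the 3 first described passed (19.5%), close to the 20% of all tested genes.

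Small negative differences were spread along the whole cluster. Of the first 20 members in map order, 16 were tested, 11 of them were negative and the median log2 difference was -0.38. Of members 21 to 40, 12 were tested, all 12 were negative and the median was -0.45. Of members 41 to 60, 16 were tested, 15 were negative and the median was -0.41. Of the 6 positive members, ZNF579, ZNF524, ZNF865 and ZNF580 lay close together at the centromeric end of the interval.

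Several probe sets of a gene mostly gave the same direction. Of 17 members with more than 1 tested probe set, 13 had differences of 1 sign, and ZNF805, ZNF548, ZNF551 and ZNF606 had both signs. No member had probe sets of both signs beyond 1 on the log2 scale. The probe sets of ZNF551 ranged from -0.87 to 0.13 and those of ZNF606 from -0.06 to 0.73.

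None of the members named for their known roles was called. TRIM28, the corepressor of KRAB proteins, was read at 81.5, 84.8 and 89.3 in parental cells and at 99.0, 62.6 and 56.3 in resistant cells. Resistant replicate 1 exceeded all parental arrays and the other 2 were below them (log2 difference -0.27, SE 0.271, limma adjusted p = 0.626). ZNF274 was read at 24.4, 35.0 and 31.7 against 23.9, 20.8 and 23.5, which did not overlap but was not called (-0.41, limma adjusted p = 0.39). MZF1, a SCAN domain factor first described in myeloid cells, was read at 10.8, 10 and 6.33 against 7.55, 7.38 and 6.02 (-0.34, limma adjusted p = 0.545). PEG3, an imprinted gene expressed from the paternal allele, was below 1 on every array by the probe sets of its own, at 0.364, 0.260 and 0.220 in parental cells and 0.748, 0.184 and 0.127 in resistant cells by the first of the 2 probe sets that name it alone. Another, which also names ZIM2, reached 1.37 on parental replicate 3 and 1.54 on resistant replicate 3.

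TRIM28 was also examined with the other genes of the silencing pathway. Of 26 partners listed, 23 had a probe set and 22 were tested, and limma called none of them. Over all genes 1.47% were called lower and 1.3% higher, so none among 22 is close to those shares. Their median log2 difference was -0.04, with 11 of 22 negative, against 0.02 over all tested genes, and 1 partner had an unadjusted limma p under 0.05, 2 by the test of the study's methods. The methyltransferase SETDB1 was read at 15.4, 9.54 and 6.92 in parental cells and at 14.2, 9.06 and 11.4 in resistant cells (0.18, limma adjusted p = 0.826). CBX5, which encodes an HP1 protein, had the largest difference, with 13.2, 82.1 and 77.6 in parental cells and 120.2, 111.8 and 120.5 in resistant cells (1.42, limma adjusted p = 0.336). Parental replicate 1 lay far below the rest there. ZFP57, a KRAB protein of imprinted loci, was at background on all arrays.

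14 members had no probe set of their own that passed the level filter, and the highest value among them was 1.74 array medians. They were ZNF471, ZNF470, ZNF835, PEG3, ZNF543, ZNF547, ZNF17, ZNF549, ZIK1, ZNF154, ZNF417, ZNF418, ZNF135 and ZNF132, and 7 of them were below 1 array median on every array by every probe set naming them alone. Probe sets shared with a second gene reached higher values for PEG3 and for ZNF417, where those shared with ZNF587 reached 2.48. In 3 of the 22 probe sets (13.6%) all resistant arrays lay below all parental arrays, against 5.36% of all 18764 untested probe sets that name 1 gene. ZNF471 was 1 of these, at 0.713, 0.260 and 0.724 in parental cells and 0.0244, 0.104 and 0.0686 in resistant cells, all in the background range. ZNF547 and ZNF135 gave the others, and a different probe set of ZNF135 was higher in all resistant arrays. No fold is given for values of this size.

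The reference annotation places 188 genes between ZNF579 and MZF1, of which 128 are not members, and 16 of these had a tested probe set. Their log2 differences were also mostly negative, 14 of 16, with a median of -0.68. The pseudogene ZNF542P, which lies between ZSCAN5A and ZNF582, was called lower by the brighter of its 2 tested probe sets. The other is not reported here. The brighter was read at 4.36, 5.74 and 6.75 in parental cells and at 0.537, 1.19 and 1.29 in resistant cells. Both groups were compact, at means of 5.62 ± 1.20 and 1.01 ± 0.411 (SD, n = 3). The fold was 5.89 (log2 difference -2.56, SE 0.393, limma adjusted p = 0.0289), or 4.79 with values under 1 set to 1. The 9 tested non-members with zinc finger symbols had a median of -0.80 and all 9 were negative, and the 7 others had a median of -0.41 with 5 negative. These genes took no part in the choice of members, but they lie among them.

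Genes outside the cluster with zinc finger symbols (starting ZNF, ZFP, ZSCAN, ZKSCAN, ZBTB or ZIK) were compared as a background. The 123 tested elsewhere on chromosome 19 had a median log2 difference of -0.23, and 64.2% of them were negative. ZNF780A, ZNF112, ZNF347 and ZNF227 among them were called lower (-1.63, -1.46, -1.55 and -4.24, limma adjusted p = 0.0407, 0.0464, 0.0262 and 0.0196) and none higher. The 261 on other chromosomes had a median of -0.05, with 53.3% negative and 3 called in each direction, and the 683 other genes of chromosome 19 had a median of -0.03. The members' median of -0.41 was below each of these, but the members were chosen with lower genes known and the difference was not tested. Taken as log2 of array medians, the median level of the tested members was 1.99, 2.17 and 2.23 on the parental arrays. On the resistant arrays this log2 level was 1.78, 1.60 and 1.62. For zinc finger genes elsewhere on chromosome 19 it was 2.02, 2.19 and 2.18 on parental and 2.07, 1.93 and 1.68 on resistant arrays. For those of other chromosomes it was 2.73, 2.69 and 2.60, then 2.74, 2.47 and 2.53. Over all tested genes it was higher, at 3.37, 3.34 and 3.21, then 3.47, 3.20 and 3.23.

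**Figure D3:**
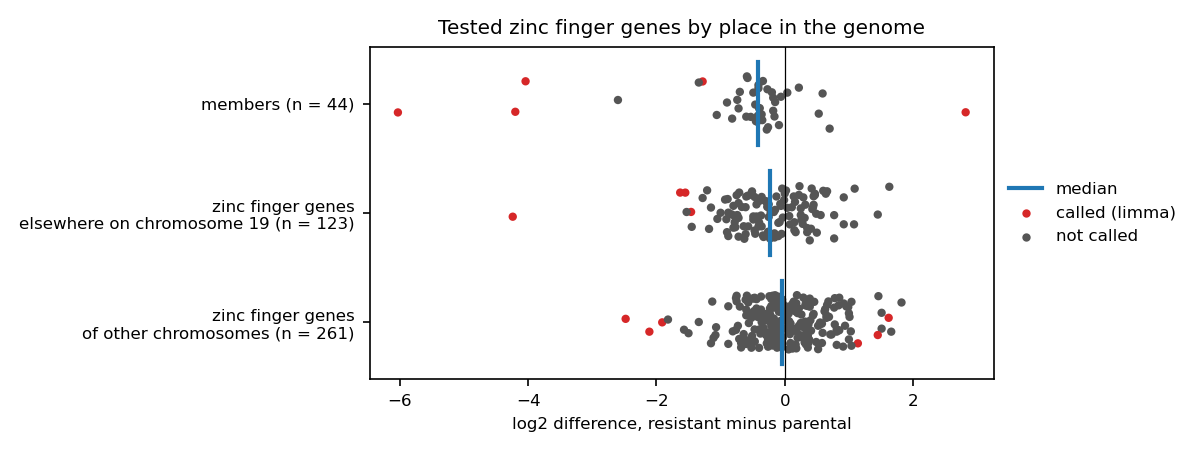
Log2 difference, resistant minus parental (horizontal axis), of tested genes by place in the genome. Groups are the 44 members of the 19q13.4 cluster (TRIM28 and ZNF667-AS1 included) and genes with zinc finger symbols, 123 elsewhere on chromosome 19 and 261 of other chromosomes. The 9 tested non-members with zinc finger symbols between ZNF579 and MZF1 are not shown. Points are genes, coloured points are called by limma, and vertical bars are medians, at -0.41, -0.23 and -0.05.

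The members also differed within the parental group. Parental replicate 1 was below the mean of parental replicates 2 and 3 in 31 of 44 members (70.5%), against 43.6% of all tested genes, and the median of this difference was -0.24 on the log2 scale, against 0.10. It was lower by over 1 in 7 members (15.9%, against 7.36% of all tested genes) and higher by over 1 in ZNF524 (1.41), ZNF784 (1.26) and ZNF324 (1.08). ZNF551 was the extreme case, at 1.48 on parental replicate 1, 13.4 and 15.8 on the other parental arrays and 5.76, 5.09 and 3.17 on the resistant arrays. Its resistant values lay between those of the parental arrays (log2 difference -0.59, limma adjusted p = 0.767). Without parental replicate 1 its difference was -1.69 (limma adjusted p = 0.0521), and without that array and resistant replicate 3 it was called lower, at -1.43 (limma adjusted p = 0.0472). ZNF256 (-2.08), ZNF667-AS1 (-1.74), ZNF416 (-1.55) and ZNF134 (-1.14) were lower on parental replicate 1 as well. Without this array the median difference of the tested members between resistant and parental cells was -0.49 and 38 of 44 were negative, and without it and resistant replicate 3 the median was -0.41 and 37 of 44 were negative.

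**Figure D4:**
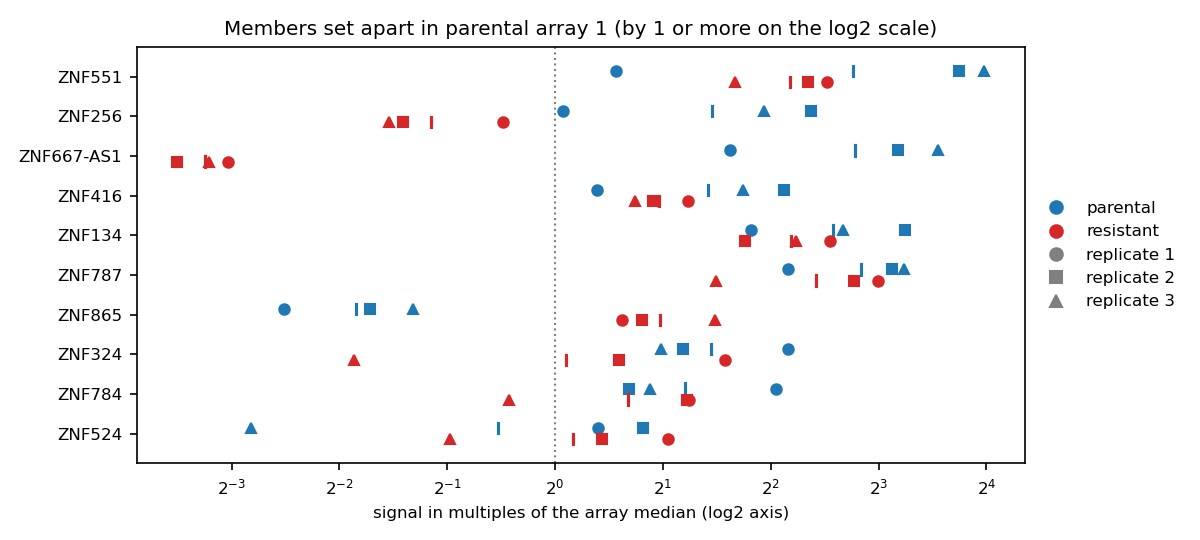
Signal in multiples of the array median (horizontal axis, log2 scale) on all 6 arrays for the members whose level on parental replicate 1 differed from the mean of the other parental arrays by 1 or more on the log2 scale. Colours give the group, marker shapes the replicate and short bars the mean of the log2 values; ZNF551 on parental replicate 1 lies at 1.48, left of all other arrays.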

How the data were processed

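Expression was measured on 6 arrays, 3 of parental and 3 of MTX-resistant K562 cells, grouped by the labels. The deposited intensities were linear signals, 1 per probe set, that the authors computed with MAS5 (version not given in the sources used here). Intensities were scaled to the array median (10.2 to 14.3), values under 0.01 were set to 0.01, and log2 was taken. A filter on control strength in the study depends on the error model of its software and was replaced: probe sets averaging under 1 array median were left out, and 26692 of 54675 remained; 62 manufacturer controls were not tested. Arrays were compared by limma 3.58.1 in R 4.3.3 (lmFit and eBayes, two-sided), with Benjamini-Hochberg adjustment over all tested probe sets and calls where the adjusted p was below 0.05 and groups differed at least 2-fold. Each gene was represented by its brightest tested probe set (mean log2 value). Errors of levels are standard deviations, and the number of arrays limits the precision.

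Probe sets were named from the platform annotation, 41043 of 41097 that name 1 gene were matched to GRCh38.p14, and that annotation gave the map order. Sequences are from RefSeq. Members, lists, motifs and tests were chosen with earlier results of these data known. Members named in the text were the 3 genes the cluster was proposed from, every called member, the 12 with the largest difference, and TRIM28, ZNF274, PEG3 and MZF1; other members and CBX5, SETDB1 and ZFP57 were named after their values were seen. The fit was tested on simulated data. Alternatives covered scaling, the level filter, pseudocounts, a floor at 1 array median, the prior, the test of the methods (2-sample, equal variances), a replicate block, probe sets of classes that can read several transcripts, the mean over a gene's probe sets, and leaving out each array.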

Additional observations from a re-analysis of the deposited data

How the results depend on the processing

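The number of called members moved with the processing more than the share of negative members did. Under every alternative run most tested members were negative, from 81.0% without a level filter (48.8% of all genes) to 88.9% on values as deposited (64.6% of all genes), a count added after seeing the data. The median of the members was -0.61 on values as deposited, where that of all tested genes was -0.19. Over the fits without 1 array each, the median was -0.49 to -0.34 and 35 to 38 members were negative. 4 member genes were called lower and 1 higher; without 1 array each, 2 to 5 were called lower and 0 to 1 higher. ZNF544 and ZNF667-AS1, both among the genes described without a test, were called in all 6 of these fits, which tests nothing about them. ZNF667 was not called without parental replicate 2, parental replicate 3 or resistant replicate 3. Members called lower numbered 2 without a level filter (ZNF544 and ZNF667-AS1) and 2 without probe sets of classes that can read several transcripts (ZNF211 and ZNF667). Leaving out these classes removed the only tested probe set of ZNF667-AS1 and the brighter one of ZNF544. The dimmer probe set of ZNF544 stayed in that fit and was not called. In the main fit it gave -2.95 (SE 1.03, limma adjusted p = 0.196). No member was called higher (0) without a level filter, with that filter at 2, with a floor at 1 array median, with an intensity trend and robust prior, or without parental replicate 1 and resistant replicate 3; limma gave 11 members an unadjusted p under 0.05 (25%, and 20% of all genes). The test of the methods was run on log2 values with the level filter used here, so it was not the study's full procedure. This 2-sample test called 0 members in either direction, with 13 at an unadjusted p under 0.05 (29.5%, and 20% of all genes). The log2 difference of ZNF324 turned to 0.01 without parental replicate 1 and resistant replicate 3. The other results for single members kept their direction.

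Over all tested probe sets, 319 were called higher and 303 lower. Values as deposited gave 205 higher; no level filter 97 and 77; a pseudocount of 0.25 455 lower, and of 1 599 and 592; a floor at 1 array median 617 and 591; the trend and robust prior 563 and 570; the test of the methods 82 and 44; leaving out shared classes 198 and 187; leaving out parental replicate 1 and resistant replicate 3 526 and 488. Without 1 array each the counts were 103 to 633 and 79 to 447. Replicate numbers did not pair the arrays, since deviations of arrays with the same number correlated at -0.00671, -0.0253 and -0.00641 and no array went best with its own number. With a replicate block 133 probe sets were called higher and 136 lower, and 2 members lower. Signals near background limit ZNF667, ZNF865 and the 14 members that were not tested. The causes of these changes were not tested.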
